A study of Mus musculus with 30 samples.

Results

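Solute carriers are membrane proteins that move amino acids, sugars, ions, metals, vitamins, nucleosides and metabolites into and out of cells and organelles. The genes described here were the rows of the RNA count tables whose symbol begins with Slc, a family number, the letter a and a member number, without the glucose transporter genes Slc2a1, Slc2a3 and Slc2a6, and which were selected on their measured level, a count of 200 or more summed over the 18 RNA libraries. Of 24459 genes, 344 symbols matched, 341 were left after the 3 exclusions, and 171 reached the minimum. The other 170 fell short of it, 26 of them with no count in any library. The members with the smallest sums were Slc29a4 (206 counts), Slc7a4 (220) and Slc27a2 (225), and the genes just under the minimum were Slc39a2 (180), Slc9a3r2 (171) and Slc46a1 (156). Members are rows of one table and no replicates of a condition. A gene can pass such a minimum through 1 stage alone: 7 members had a sum under 200 in the pre-pro B libraries and 21 in the pre-B libraries.

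The mice were of the C57BL/6 strain and carried the G158R substitution in Aiolos, a zinc finger transcription factor of lymphocytes encoded by Ikzf3, on neither copy (Ikzf3+/+, WT), on 1 copy (Ikzf3+/m, het) or on both (Ikzf3m/m, homo). RNA came from bone marrow cells sorted at the pre-pro B stage (B220+ AA4.1+ IgM- CD43+ CD24-) and at the later pre-B stage (B220+ AA4.1+ IgM- CD43- CD24+), with 3 libraries for each of the 6 combinations of genotype and stage. The labels give no age, name no agent given to the mice, and do not say whether libraries came from separate animals, so p-values measure the spread between these libraries. The binding of Aiolos and of its relative Ikaros was mapped by ChIP-seq in WT and homo thymocytes and in WT and homo pre-B cells grown in culture, with 1 library for each. For the culture, the labels of 1 WT sample give Tst-4 stromal cells and the cytokines IL-7, SCF and Flt3L.

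Cells that grow and divide depend on carriers of several kinds. Plasma membrane carriers bring in glutamine, leucine and other amino acids, lysosomal carriers return the products of protein breakdown to the cytosol, monocarboxylate carriers let lactate out, zinc and iron carriers supply enzymes and transcription factors, and the carriers of the inner mitochondrial membrane link both compartments. In the B lineage, pre-B cells pass through a burst of division after the pre-B cell receptor is assembled. Some lysosomal carriers, among them those encoded by Slc15a3 and Slc15a4, are known for their part in the sensing of nucleic acids by plasmacytoid dendritic cells and B cells.

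Grouped by family number under a substrate of each family, the members were 39 mitochondrial carriers (family 25), 24 carriers of sodium, potassium, protons and chloride, 23 of zinc and other metals, 19 of amino acids, 15 of sugars and nucleotide sugars, 15 of nucleosides, vitamins and choline, 7 of monocarboxylates, 7 of organic ions and drugs, 6 of fatty acids, acetyl-CoA and urea, 5 of peptides and lysosomal solutes, 5 of the neurotransmitter families 6 and 18, and 2 of phosphate. A single member can carry something other than its group's name says. The other 4 members, Slc2a4rg-ps, Slc4a1ap, Slc7a6os and Slc9a3r1, match the pattern by name and encode no carrier. Of the 171, 58 overlap another annotated gene (Slc6a19 with Slc6a19os, Slc33a1 with Gmps, Slc5a3 with Mrps6 and Slc2a9 with Gm40290, for example). The sources used here do not give whether the counting used the strand, so reads of such pairs may not be told apart.

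Libraries held 1888871 to 9048055 gene counts, and the members took 1.334% to 1.353% of them in the pre-pro B libraries and 0.958% to 1.146% in the pre-B libraries. Levels are given as CPM, a library's counts scaled to one fixed total, with TMM estimating each library's effective size, and are not divided by gene length, so levels are compared between samples and not between genes. Values after ± are the SD over 3 libraries for a level and the SE for a log2 fold change. The homo replicate 3 library of pre-B cells stood apart: it had the fewest counts, and its 6 cell cycle marker genes summed to 7334 CPM against 3105 to 4496 in the other 8 pre-B libraries. The cell cycle genes were not alone in this. Its B lineage markers summed to 2786 CPM against 1716 to 2149 in the others, while its plasmacytoid dendritic cell markers (783 CPM) lay within the others' range. It held 1500 Actb counts against 2009 to 2506. The part of depth in these values was not tested. Ikzf3 itself had 72 to 220 counts in the pre-pro B and 1022 to 3429 in the pre-B libraries, and gene counts do not show the substitution. XY libraries were het replicate 2 and homo replicates 1 and 3 at both stages, and the other 12 were XX. The 7 B lineage markers summed to 169 to 333 CPM in the pre-pro B and 1716 to 2786 CPM in the pre-B libraries, and the 13 plasmacytoid dendritic cell markers to 5015 to 7872 and 692 to 839 CPM. The cells labelled pre-pro B thus had a higher sum of plasmacytoid dendritic cell markers than those labelled pre-B.

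Slc47a1, an exporter of organic cations and drugs, fell short of the minimum, with a sum of 129 counts. It had 0 counts in the 9 pre-pro B libraries, 1, 1 and 2 counts in the WT pre-B libraries, 40, 20 and 42 in het and 14, 7 and 2 in homo. Scaled to CPM the het libraries were the highest (6.23, 4.93 and 6.095), followed by homo (2.22, 1.08 and 1.200) and WT (0.1597, 0.179 and 0.322), and the 3 genotypes did not overlap. In pre-B cells Slc47a1 was higher than in WT in het (log2 4.57 ± 0.42, adjusted p = 0.000329, edgeR's quasi-likelihood test with Benjamini-Hochberg adjustment) and in homo (log2 2.72 ± 0.54, adjusted p = 0.00685). Homo was lower than het (log2 −1.86 ± 0.32, adjusted p = 0.0182), a call that was lost without het replicate 1 (0.08325), het replicate 3 (0.05184) or homo replicate 2 (0.1002).

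The stage comparison asked how WT pre-B cells differ from WT pre-pro B cells. More carriers were lower in pre-B cells than were higher: of 171 members tested, 79 fell (46.2%, against 33.3% of all genes tested) and 39 rose (22.8%, against 31.0%). In all 118 members were called (69.0%, against 64.3% of all genes), and the median log2 fold change was −0.27 over the members and −0.01 over all genes. The members were selected on summed counts and all genes tested were not, so these shares do not compare like with like. The sum was under 200 in the pre-B libraries for 21 members and in the pre-pro B libraries for 7. Each called member had 3 pre-B libraries outside the range of the 3 pre-pro B libraries. With 3 libraries in a group a call makes this likely, and it was not counted over all called genes. In bulk RNA, fewer cells of a type and less RNA per cell cannot be told apart, and the plasmacytoid dendritic cell markers moved with the stage as given above, the 10 NK and innate lymphoid markers from 31.1 to 45.3 CPM in WT pre-pro B cells to 2.08 to 3.40 in WT pre-B cells (6 to 8 of the 10 at 0). Their part in the members' changes was not tested. The 24 members named for this comparison, the 12 with the largest rise and the 12 with the largest fall, kept their call in every alternative fit in which they were tested.

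**Figure D1:**
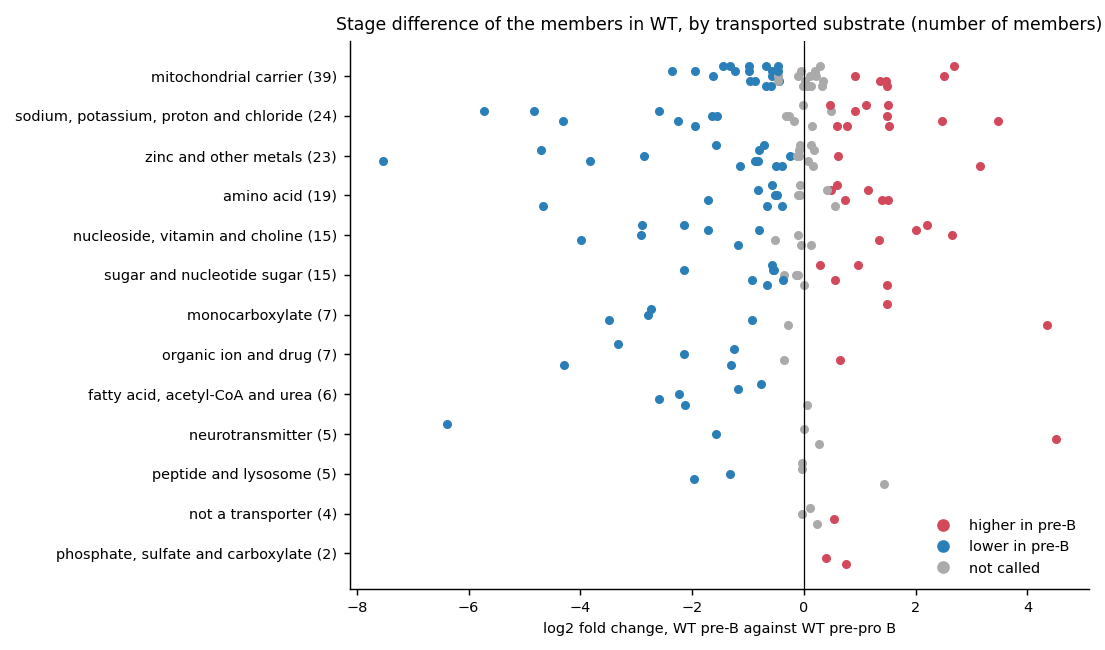
Log2 fold change (horizontal axis) of each member between WT pre-B and WT pre-pro B cells, 1 point per gene, in rows by substrate group (set by family number), with the number of members in brackets. Red points were higher and blue points lower in pre-B cells at an adjusted p under 0.05, and grey points were not called: 39, 79 and the rest of the 171.

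Of the 7 monocarboxylate members 2 rose and 4 fell. Slc16a1, which carries lactate and pyruvate, stood at 18.4, 6.82 and 21.8 CPM in the WT pre-pro B libraries and at 329, 320.2 and 305 CPM in the WT pre-B libraries (log2 4.34 ± 0.27, adjusted p = 1.31e-10). The pre-pro B libraries differed among themselves, replicate 2 being the lowest, and lay far below the pre-B ones. Slc11a2, which takes up ferrous iron and other divalent metals, went from 15.01, 11.6 and 18.7 to 139, 129 and 136 CPM (log2 3.15 ± 0.19, adjusted p = 9.81e-11). Slc28a2, a sodium-coupled nucleoside carrier, went from 19.5 ± 1.18 to 89.96 ± 10.2 CPM (log2 2.20 ± 0.13, adjusted p = 1.03e-10), and Slc29a4, a carrier of monoamines that its family places with the nucleoside carriers, from 0.561 ± 0.0616 to 2.32 ± 0.668 CPM. Slc23a1, which takes up vitamin C, rose from 2.35 ± 0.6505 to 14.9 ± 1.37 CPM (6.27-fold). These genes rose between 4.03-fold (Slc29a4) and 20.3-fold (Slc16a1).

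Ion and amino acid carriers rose as well. Slc12a3, the sodium and chloride cotransporter known from the kidney tubule, stood at 4.13, 7.82 and 6.38 CPM in WT pre-pro B and at 63.9, 74.3 and 66.8 CPM in WT pre-B libraries (log2 3.47 ± 0.19, adjusted p = 2.04e-11). Slc24a5, an exchanger of sodium, potassium and calcium, rose 5.53-fold, and Slc4a8, which exchanges sodium and bicarbonate for chloride, 2.87-fold. Of the 19 amino acid carriers 6 rose and 8 fell. Slc1a5, the main glutamine carrier of dividing cells, rose from 190.4 ± 4.65 to 504 ± 28.3 CPM (log2 1.41 ± 0.08, adjusted p = 8.39e-11), and Slc43a1, a carrier of leucine and similar amino acids, rose 2.84-fold. Slc7a5, the light chain of the exchanger for large neutral amino acids, moved the other way, from 185 ± 12.1 to 55.9 ± 2.17 CPM (log2 −1.72 ± 0.15, adjusted p = 2.01e-08), as did its heavy chain gene Slc3a2 (134 to 84.4 CPM, log2 −0.67 ± 0.10, adjusted p = 1.78e-05). Slc6a19, a neutral amino acid carrier known from gut and kidney, is counted by its family number with the neurotransmitter families and not among the 19. It had 2 counts over the WT pre-pro B libraries and 54 over the WT pre-B libraries (pooled ratio 26.6, 95% counting interval 7.01 to 224.9).

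The mitochondrial carriers had 18 members lower and 6 higher of 39. Slc25a18 (a glutamate carrier) rose from 1.56 ± 0.954 to 10.3 ± 1.15 CPM and Slc25a27, of the uncoupling protein group, from 3.38 ± 0.819 to 19.5 ± 1.66 CPM (6.45-fold and 5.68-fold). Both aspartate and glutamate exchangers fell, Slc25a12 from 225 ± 3.87 to 44.01 ± 1.57 CPM (log2 −2.35 ± 0.12, adjusted p = 1.36e-11) and Slc25a13 from 14.99 ± 2.91 to 10.9 ± 0.846 CPM (log2 −0.46 ± 0.18, adjusted p = 0.0279). Slc25a51, which brings NAD into mitochondria and had the largest summed count of the group, rose from 165 to 312 CPM (log2 0.92 ± 0.08, adjusted p = 1.29e-08).

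Metal carriers had 13 members lower and 2 higher of 23 (Slc11a2 and the zinc exporter Slc30a4). Slc41a2, a magnesium carrier, stood at 298, 282 and 287 CPM in WT pre-pro B and at 1.44, 1.07 and 2.09 CPM in WT pre-B libraries (log2 −7.52 ± 0.23, adjusted p = 1.02e-14). Slc39a14, an importer of zinc, iron and manganese, went from 223, 245 and 217 to 10.4, 8.77 and 7.24 CPM (log2 −4.70 ± 0.19, adjusted p = 3.6e-13). The zinc importer Slc39a11 fell 14.3-fold. Slc39a10, a zinc importer with a known part in B cell survival, fell from 76.7 ± 9.97 to 54.4 ± 5.21 CPM (log2 −0.50 ± 0.15, adjusted p = 0.00766).

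Of the 5 members that carry peptides or lysosomal solutes 2 fell (Slc15a3 and Slc15a4) and none rose. Slc9a9, a sodium and proton exchanger of endosomes, went from 157.6, 159 and 153 to 5.27, 6.08 and 5.15 CPM (log2 −4.83 ± 0.12, adjusted p = 8.19e-16), and Slc46a3, a lysosomal carrier, from 112 ± 9.74 to 7.003 ± 0.783 CPM (15.9-fold lower). Slc29a3, a nucleoside carrier of lysosomes, fell 7.54-fold, Slc15a3 3.897-fold and Slc15a4 2.51-fold. Slc36a1, which exports small neutral amino acids from lysosomes together with protons, fell less, from 92.7 ± 3.78 to 65.2 ± 6.03 CPM (log2 −0.51 ± 0.11, adjusted p = 0.000656). Among other lysosomal carriers, Slc17a5 (log2 −0.04 ± 0.13, adjusted p = 0.818) and Slc17a9 (log2 −0.02 ± 0.20, adjusted p = 0.92) were not called, and Slc38a9 was higher in pre-B cells (log2 0.60 ± 0.11, adjusted p = 8.47e-05). Of the 8 genes listed as partners of Slc15a3 and Slc15a4 in nucleic acid sensing, 7 fell (against 33.3% of all genes) and none rose, among them the receptor genes Tlr7 (373 to 4.26 CPM) and Tlr9 (416 to 80.5 CPM).

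Other large falls were those of the sodium and calcium exchanger Slc8a1 (19.8-fold), Slc22a23, an orphan of the organic ion family (19.7-fold), Slc22a17, a receptor for an iron-binding lipocalin (10.1-fold), and the monocarboxylate carrier Slc16a7 (11.3-fold). A few fell to 1 to 2 counts in all over the WT pre-B libraries: Slc6a9, the glycine carrier, from 111 counts to 1 (pooled ratio 113, counting interval 19.8 to 4496), Slc9a2, a sodium and proton exchanger, from 121 to 2 (61.5, 16.7 to 514), and Slc7a4, an orphan of the cationic amino acid family, from 59 to 2 (30.0, 7.94 to 253). Slc6a9, Slc9a2 and Slc7a4 reached the minimum for members through their pre-pro B counts. So did Slc41a2, Slc9a9, Slc8a1, Slc22a23, Slc22a17 and Slc16a7, whose pre-B counts alone fall short of it. Among the members that rose, Slc6a19 and Slc25a18 reached it through their pre-B counts. The selection and these large changes are thus not independent. Among 6 fatty acid, acetyl-CoA and urea carriers 5 fell and none rose, with the fatty acid carrier Slc27a1 going from 269 ± 9.37 to 44.5 ± 2.38 CPM (log2 −2.59 ± 0.14, adjusted p = 1.38e-11). Both phosphate carriers rose (Slc20a1 1.69-fold and Slc20a2 1.31-fold).

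In het cells 43 members rose between the stages (32.4% of all genes did) and 89 fell (35.8% of all genes), 132 in all (77.2%, against 68.1%). In homo cells 41 rose (32.7% of all genes did) and 92 fell (36.4% of all genes), 133 in all (77.8%, against 69.1%). The selection on summed counts bears on these shares as it does in WT. The 3 pre-B libraries of 6 of the called members in het and 2 in homo overlapped the pre-pro B libraries. Such overlap was not counted over all called genes. The contrasts of the 3 genotypes share no library. The 10 members named in het and the 10 named in homo were called under every alternative. Slc7a4 had no counts in het or homo pre-B libraries and was at least 21.5-fold lower there in het and at least 13.6-fold lower in homo, taking 3 counts over a group's libraries as the limit that no count allows.

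The comparison of homo with WT pre-B cells addressed the later stage. Of the 171 members 163 passed the filter on low counts. Lysosomal Slc36a1 was lower in homo pre-B cells by 7.75-fold, Slc2a8, Slc2a9, Slc4a8 and the amino acid carriers Slc1a5 and Slc43a2 were lower too, and Slc16a10, Slc6a19, Slc12a2, Slc1a4 and the zinc carriers Slc30a4, Slc39a10 and Slc39a14 were higher. In all 16 members rose (9.82%, against 7.42% of all genes) and 14 fell (8.59%, against 8.45%), 30 together (18.4%, against 15.9%), which is near the share over all genes. The 3 homo libraries of each called member lay outside the range of the 3 WT libraries, which a call makes likely and which was not counted over all called genes. The NK marker sum was 23.4 to 26.3 CPM in homo and 2.08 to 3.40 in WT pre-B cells, and the myeloid sum 116 to 151 and 55.7 to 58.0, with 1 to 3 and 3 to 5 of the 10 genes at 0 in homo. Most of the myeloid sum was Itgam, with a mean of 52.4 CPM in WT and 122 in homo, while the means of Mpo, Elane, Prtn3, Ctsg, S100a8, S100a9 and Cd14 were under 1 CPM. The T lineage sum was 39.7 to 41.9 CPM in WT and 21.6 to 27.8 in homo. Nearly all of it was Lck, with means of 40.6 and 23.4 CPM, while Cd3e, Cd3d, Cd3g and Cd8a had means under 1 CPM. Most of the NK sum in homo was Klrb1c and Prf1, with means of 10.1 and 10.9 CPM. The part of these sums in the members' changes was not tested.

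**Figure D2:**
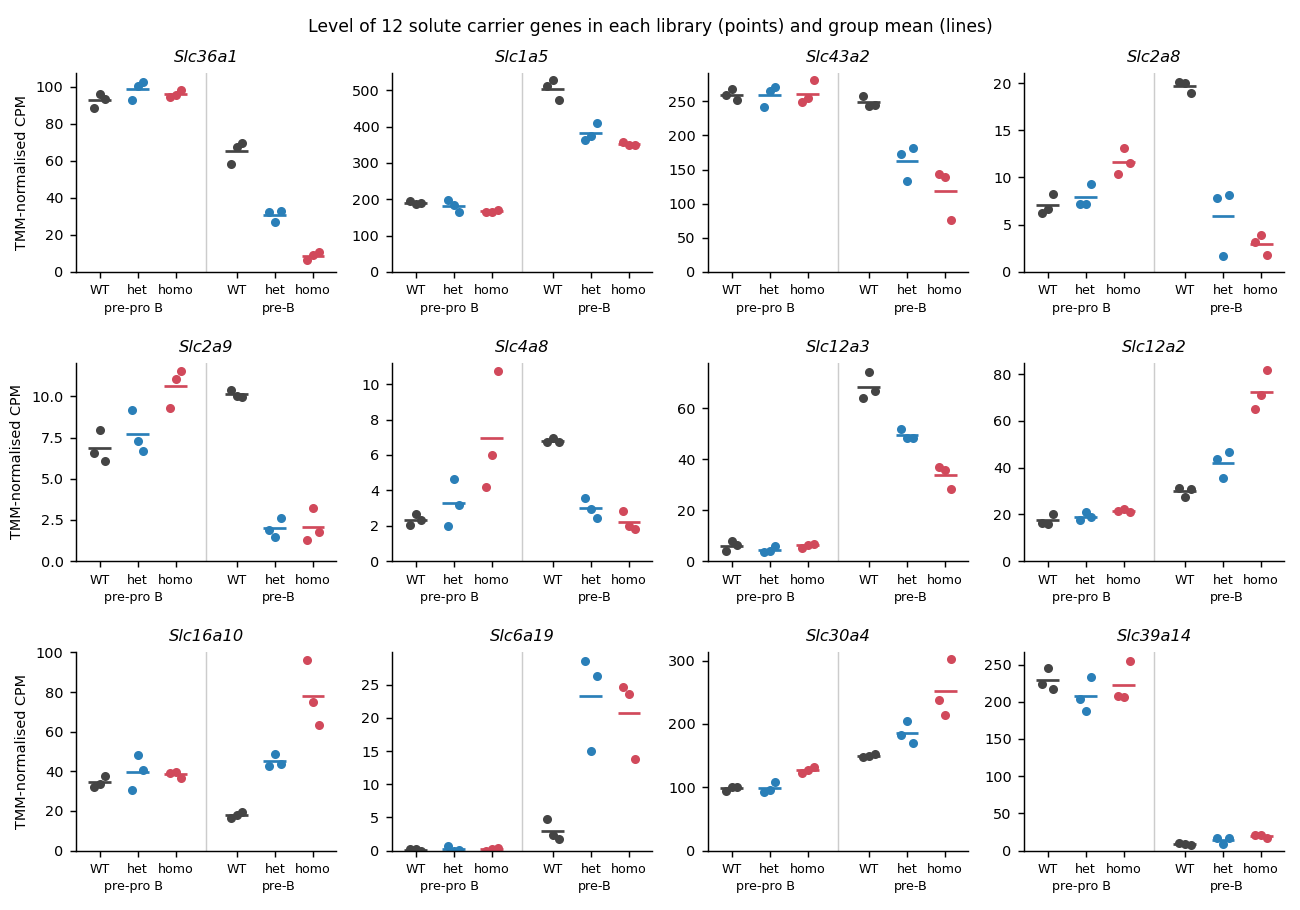
TMM-normalised CPM (vertical axis, from 0) of 12 members in each of the 18 libraries, points, with the mean of 3 libraries as a line, by genotype at the pre-pro B (left) and pre-B stage (right of the grey line). Slc36a1, Slc1a5 and Slc12a3 step down and Slc12a2, Slc16a10 and Slc30a4 step up from WT to het to homo pre-B cells, without overlap.

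Among amino acid carriers, 4 rose and 4 fell of 18 tested in homo pre-B cells. Slc36a1 stood at 58.3, 67.6 and 69.5 CPM in the WT pre-B libraries, at 32.5, 26.8 and 32.7 in het and at 6.33, 9.25 and 10.8 in homo, where it was lowest (log2 −2.95 ± 0.20, adjusted p = 1.83e-05). In pre-pro B cells the same gene stood at 92.7 ± 3.78, 98.6 ± 5.199 and 96.2 ± 1.91 CPM, with overlapping libraries. Slc1a5, the glutamine carrier, stood at 511, 529 and 473 CPM in WT and 358, 349 and 349.9 in homo pre-B libraries (log2 −0.52 ± 0.10, adjusted p = 0.0077). The carriers of leucine and other essential amino acids did not move together. Slc43a2 was lower, at 258, 243 and 244 in WT and 143, 139 and 75.6 CPM in homo (log2 −1.03 ± 0.21, adjusted p = 0.00814), with homo replicate 3 the lowest, and Slc7a6 was lower as well (75.9 ± 3.77 to 47.5 ± 2.52 CPM, log2 −0.67 ± 0.13, adjusted p = 0.00581).

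Slc43a1 was higher in homo (31.7 ± 3.93 to 51.3 ± 4.97 CPM, log2 0.71 ± 0.15, adjusted p = 0.0102), and Slc7a5 stood at 54.6, 54.8 and 58.4 CPM in WT and 97.2, 112 and 63.6 in homo (log2 0.73 ± 0.20, adjusted p = 0.0308). Its partner chain Slc3a2 was not called (84.4 ± 0.763 and 84.6 ± 11.2 CPM, log2 0.02 ± 0.14, adjusted p = 0.943). Slc1a4, a carrier of alanine, serine and cysteine, rose from 1.92, 1.97 and 3.54 to 10.8, 8.33 and 4.201 CPM (log2 1.75 ± 0.35, adjusted p = 0.00712), and the cationic amino acid carrier Slc7a1 from 104 ± 2.85 to 154 ± 31.6 CPM (log2 0.58 ± 0.15, adjusted p = 0.0252). Slc6a19, counted with the neurotransmitter families, had 30, 13 and 11 counts in the WT, 183, 61 and 181 in the het and 156, 153 and 23 in the homo pre-B libraries. Scaled to CPM, every mutant library lay above every WT library (homo against WT log2 2.85 ± 0.39, adjusted p = 0.000829). Of 9 amino acid response genes tested 2 rose and none fell, among them Asns, which makes asparagine (2.25 to 13.3 CPM, log2 2.52 ± 0.30, adjusted p = 0.000331).

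Sugar and nucleotide sugar carriers had no member higher and 3 lower of 15. Slc2a8, a hexose carrier of intracellular membranes, stood at 20.1, 20.04 and 18.99 CPM in WT and 3.17, 3.85 and 1.801 in homo (log2 −2.60 ± 0.42, adjusted p = 0.00234). Slc2a9, which carries urate, stood at 10.4, 10.02 and 9.98 CPM in WT and 1.27, 3.24 and 1.801 in homo (log2 −2.20 ± 0.33, adjusted p = 0.00139). In both genes the WT libraries lay close together and far above the homo libraries. The myo-inositol carrier Slc5a3 fell from 24.7 ± 1.07 to 12.4 ± 2.27 CPM (log2 −1.04 ± 0.22, adjusted p = 0.00885).

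Ion carriers had 2 members higher and 4 lower of 22 tested. Slc12a2, which takes up sodium, potassium and chloride together, stood at 31.1, 27.4 and 30.9 CPM in WT, 43.8, 35.5 and 46.9 in het, and for homo 64.9, 70.9 and 81.6 (log2 1.27 ± 0.15, adjusted p = 0.000314 for homo against WT). Its relative Slc12a3 moved the opposite way, from 63.9, 74.3 and 66.8 CPM in WT through 51.7, 48.3 and 48.2 in het to 36.7, 35.9 and 28.2 in homo (log2 −0.995 ± 0.13, adjusted p = 0.000675). Slc4a8 was lower in homo (2.85, 2.004 and 1.801 CPM against 6.71, 6.98 and 6.76, log2 −1.54 ± 0.26, adjusted p = 0.00284), as were the proton exchangers Slc9a9 (5.501 ± 0.508 to 2.76 ± 0.781 CPM, log2 −1.10 ± 0.26, adjusted p = 0.0153) and Slc9a7 of the Golgi (log2 −0.39 ± 0.12, adjusted p = 0.0451). Slc24a5 was higher (13.1 ± 1.67 to 21.98 ± 3.71 CPM, log2 0.72 ± 0.18, adjusted p = 0.0225).

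Metal carriers had 3 members higher and none lower of 22 tested, all of them carriers of zinc. Slc30a4, a zinc exporter of vesicles, stood at 147, 149 and 153 CPM in WT and 237, 214 and 303 in homo (log2 0.74 ± 0.14, adjusted p = 0.00478). The importers Slc39a14 (10.4, 8.77 and 7.24 to 20.7, 20.8 and 17.4 CPM, log2 1.18 ± 0.26, adjusted p = 0.0121) and Slc39a10 (51.7, 51.00 and 60.4 to 96.4, 89.3 and 107 CPM, log2 0.84 ± 0.18, adjusted p = 0.0103) were higher too, without overlap between the 2 genotypes. The remaining zinc carriers of this list were not called.

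Slc16a10, a carrier of aromatic amino acids and thyroid hormone in the monocarboxylate family, stood at 16.4, 17.9 and 19.6 CPM in WT, 42.5, 48.8 and 43.8 in het, and for homo 96.3, 74.8 and 63.6 (log2 2.14 ± 0.17, adjusted p = 4.02e-05 for homo against WT). It was the only called member of the 5 tested in that family: Slc16a1 stood at 318 ± 12.2 and 393 ± 63.2 CPM (log2 0.30 ± 0.13, adjusted p = 0.149). Slc14a1, the urea carrier, rose from 62.2 ± 1.62 to 117 ± 9.16 CPM (log2 0.91 ± 0.15, adjusted p = 0.00248), while Slc27a1 fell from 44.5 ± 2.38 to 19.02 ± 5.22 (log2 −1.16 ± 0.22, adjusted p = 0.00496). The vitamin C carrier Slc23a1 rose from 14.9 ± 1.37 to 27.2 ± 3.91 CPM (log2 0.90 ± 0.19, adjusted p = 0.0103).

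Of 39 mitochondrial carriers 1 rose and 2 fell in homo pre-B cells. Slc25a24, which exchanges ATP-magnesium for phosphate, stood at 27.5, 28.99 and 28.8 CPM in WT, 30.2, 32.02 and 29.6 in het, and for homo 17.4, 13.6 and 19.2 (log2 −0.80 ± 0.15, adjusted p = 0.00609). The aspartate and glutamate exchanger Slc25a12 rose from 44.01 ± 1.57 to 67.1 ± 13.4 CPM (log2 0.63 ± 0.17, adjusted p = 0.0286).

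Of the 24 members that the naming rule took for homo against WT pre-B cells, 16 were called under every alternative. The other 8 were lost on leaving out 1 library or more. Among these, Slc23a1, Slc24a5, Slc39a10, Slc43a1, Slc7a5 and Slc9a9 were lost without WT replicate 1 (adjusted p from 0.0511 to 0.117), and without WT replicate 2 Slc39a14 took the place of Slc23a1 (0.0523 to 0.109). Slc39a14 and Slc7a5 were lost without WT replicate 3 (0.0633 and 0.0889), Slc24a5, Slc7a5 and Slc9a9 when homo replicate 1 was left out (0.0800 to 0.0903), and Slc7a5 and Slc9a9 when it was homo replicate 2 (0.109 and 0.0515). With sex as a covariate Slc24a5 and Slc9a9 were lost (0.112 and 0.0560). Slc1a5, Slc25a12, Slc44a1, Slc7a1, Slc9a7 and Slc20a1, also called, were not followed singly. The count of 30 members was 18 without WT replicate 1 and 17 without WT replicate 2, and 34 without homo replicate 3, the shallow library. The count was 61 with library size as a covariate and 54 in a fit of all 18 libraries. Whether the calls over all genes moved alike was not counted.

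With 1 copy changed, het pre-B cells had 4 members higher (2.45%, against 2.80% of all genes) and 5 lower (3.07%, against 3.38%) than WT of 163 tested, 9 in all (5.52%, against 6.18%). Slc36a1 (log2 −1.09 ± 0.17, adjusted p = 0.00469), Slc2a8 (log2 −1.68 ± 0.37, adjusted p = 0.0239), Slc2a9 (log2 −2.30 ± 0.31, adjusted p = 0.00236), Slc4a8 (log2 −1.19 ± 0.24, adjusted p = 0.0151) and Slc1a5 (log2 −0.41 ± 0.10, adjusted p = 0.0483) were lower. Slc6a19 (log2 2.97 ± 0.38, adjusted p = 0.00185), Slc16a10 (log2 1.31 ± 0.17, adjusted p = 0.00172), the amino acid carrier Slc38a6 (log2 0.57 ± 0.14, adjusted p = 0.0417) and the mitochondrial carrier Slc25a53 (log2 0.48 ± 0.12, adjusted p = 0.0401) were higher. The NK marker sum was 7.78 to 10.8 CPM in het, of which Klrb1c and Prf1 had means of 3.25 and 5.66. The myeloid sum was 84.2 to 93.7 CPM, of which Itgam had a mean of 87.7. The T lineage sum was 15.5 to 24.2 CPM, of which Lck had a mean of 19.9. The part of these sums was not tested. Of the members higher in het, Slc6a19 and Slc16a10, and of those lower, Slc36a1 and Slc2a9 were called under every alternative. Without WT replicate 1, 2 or 3 the calls of Slc1a5, Slc25a53, Slc2a8, Slc38a6 and Slc4a8 were lost (adjusted p 0.0644 to 0.194, 0.0755 to 0.236 and 0.0661 to 0.162). They were lost without het replicate 1 (all but Slc4a8, 0.0660 to 0.207), het replicate 2 (Slc1a5, Slc25a53 and Slc38a6, 0.0981 to 0.133) or het replicate 3 (Slc1a5 and Slc25a53, 0.0506 to 0.0713) as well. With sex as a covariate or without the filter Slc1a5, Slc25a53 and Slc38a6 were lost (0.0556 to 0.0622 and 0.0517 to 0.0905), and with edgeR's RLE scaling in place of TMM Slc1a5 and Slc25a53 (0.0510 to 0.0542). The count of 9 was 4 without WT replicate 1, 2 or 3 and 5 without het replicate 1.

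Between homo and het pre-B cells 2 members were higher (against 0.806% of all genes) and 2 lower (against 1.09%) in homo, 4 in all (2.45%, against 1.89%). They were Slc12a2 (log2 0.78 ± 0.15, adjusted p = 0.0255) and Slc16a10 (log2 0.82 ± 0.16, adjusted p = 0.0305), higher, and Slc36a1 (log2 −1.87 ± 0.20, adjusted p = 0.00315) and Slc25a24 (log2 −0.89 ± 0.15, adjusted p = 0.0182), lower. The call of Slc36a1 was kept under every alternative. The other 3 calls were lost on leaving out het replicate 1 or homo replicate 2, with adjusted p between 0.0812 and 0.159 and between 0.0859 and 0.0948. Without homo replicate 1 Slc25a24 and Slc16a10 (0.0560 and 0.0951), without het replicate 2 Slc12a2 (0.0548) and without het replicate 3 Slc16a10 (0.0899) were lost. The count of 4 became 1 without het replicate 1, and leaving out homo replicate 1, 2 or 3 gave 2, 1 and 9.

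The 3 genotypes lay in order without overlap in 8 of the 163 members tested in pre-B cells (4.91%, against 5.17% of all genes tested). Among them, Slc12a2, Slc14a1, Slc16a10 and Slc30a4 rose with the number of mutant copies, and Slc12a3, Slc1a5 and Slc36a1 fell. In pre-pro B cells 4 of 170 did so (2.35%, against 3.14%), Slc19a2, Slc4a7 and Slc9a2 rising and Slc27a1 falling.

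The comparison of homo with WT cells sorted as pre-pro B addressed the earlier stage. The ion exchangers Slc4a8 and Slc9a2, the sugar carriers Slc2a8 and Slc2a9 and the carriers of thiamine (Slc19a2) and folate (Slc19a1) rose in homo cells, and Slc15a3, Slc29a3 and Slc46a3 fell by smaller folds. Of 170 members tested 22 rose (12.9%, against 12% of all genes) and 20 fell (11.8%, against 10.4%), 42 in all (24.7%, against 22.4%), and 3 of them (Slc29a4, Slc4a8 and Slc9a2) changed by a log2 of 1 or more. The homo libraries, with 8592557 to 9048055 gene counts, were deeper than the WT libraries, with 5443344 to 6492192, and 2 of the 3 were XY. With library size as a covariate 3 members were called (1 higher, 2 lower), with sex as a covariate 10 (8 and 2) and in a fit of all 18 libraries 13 (11 and 2). Leaving out WT replicate 1 gave 15 calls, WT replicate 2 gave 17, homo replicate 2 gave 16 and homo replicate 3 gave 24. The share of all genes called under these alternatives was not counted.

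The direction moved with abundance in this comparison. The 22 members that rose had a median level of 23.2 CPM over the pre-pro B libraries, 7 of them at 50 CPM or more. The 20 that fell had a median of 157 CPM, with 18 at 50 CPM or more, and the 128 that were not called a median of 42.0 CPM. The summed markers moved too: plasmacytoid dendritic cell genes from 6585 to 7405 CPM in WT to 5015 to 5206 in homo, NK genes from 31.1 to 45.3 to 206 to 383, myeloid genes from 27.01 to 39.98 to 142 to 218 and cell cycle genes from 483 to 1093 to 1521 to 1573. Within het, the plasmacytoid dendritic cell sum was 7872 CPM in replicate 1, a library of 4683715 gene counts. It was 5149 and 5579 CPM in replicates 2 and 3, with 8771793 and 8395882 gene counts. In het, mean counts of the deeper libraries were divided by those of replicate 1 (depth ratio 1.83). The median ratio was 1.71 (1.31 to 2.12) for the 10 most abundant members. It was 2.08 (0.167 to 4.5) for the 75 members at 5 to 50 CPM, and 1.12 for Actb. At the same genotype, medians thus lay under the depth ratio for abundant members and above it for scarcer ones. Homo libraries were deeper than WT libraries, so genotype and depth are not separated here. What part library depth and each marker sum had in the members' changes was not tested.

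Among ion carriers 5 rose and 1 fell of 24. Slc9a2, a sodium and proton exchanger, stood at 7.69, 5.99 and 6.84 CPM in WT, 7.87, 9.41 and 12.1 in het, and for homo 15.7, 20.4 and 18.4 (log2 1.40 ± 0.18, adjusted p = 0.00132 for homo against WT), and its call was the only one of the 24 named that every alternative kept. Slc4a8 stood at 2.06, 2.66 and 2.33 CPM in WT and 4.22, 5.97 and 10.8 in homo (log2 1.55 ± 0.40, adjusted p = 0.0195), with homo replicate 3 the highest, and Slc9a5 rose from 7.899 ± 1.83 to 14.8 ± 1.51 CPM (log2 0.89 ± 0.25, adjusted p = 0.0263).

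Sugar carriers had 2 members higher and 1 lower of 15. Slc2a8 rose from 6.19, 6.65 and 8.24 to 10.4, 13.1 and 11.5 CPM (log2 0.71 ± 0.17, adjusted p = 0.0145) and Slc2a9 from 6.57, 7.98 and 6.07 to 9.297, 11.04 and 11.5 (log2 0.62 ± 0.18, adjusted p = 0.0277). Of the nucleoside, vitamin and choline carriers 3 rose and 4 fell of 15. Slc19a2, which carries thiamine, rose from 11.02 ± 1.72 to 17.2 ± 2.48 CPM (log2 0.62 ± 0.15, adjusted p = 0.0133), the reduced folate carrier Slc19a1 from 14.4 ± 1.76 to 20.9 ± 1.26 (log2 0.52 ± 0.14, adjusted p = 0.0212) and Slc29a4 from 0.561 ± 0.0616 to 1.504 ± 0.372 (log2 1.38 ± 0.43, adjusted p = 0.0387). Slc44a2, a choline carrier, stood at 755 ± 42.2 CPM in WT and 558 ± 4.72 in homo (log2 −0.45 ± 0.13, adjusted p = 0.0318).

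Of the 5 members that carry peptides or lysosomal solutes 1 rose in homo pre-pro B cells (Slc17a9, 12.3 to 17.5 CPM, log2 0.49 ± 0.14, adjusted p = 0.0302) and 2 fell (Slc15a3 and Slc15a4). Slc29a3 and Slc46a3, lysosomal carriers counted with the nucleosides and vitamins, fell too. Slc29a3 went from 394, 390.3 and 382 to 338, 321 and 320.4 CPM (log2 −0.26 ± 0.05, adjusted p = 0.00546), Slc46a3 from 112 ± 9.74 to 88.7 ± 4.35 (log2 −0.35 ± 0.07, adjusted p = 0.00752) and Slc15a3 from 123 ± 9.45 to 99.4 ± 9.097 (log2 −0.32 ± 0.07, adjusted p = 0.0106). Of the 8 partner genes of Slc15a3 and Slc15a4 6 fell (against 10.4% of all genes) and none rose, with Irf7 at 298 CPM in WT and 171 in homo (log2 −0.81 ± 0.19, adjusted p = 0.0207) and Tlr7 at 373 and 267 (log2 −0.49 ± 0.11, adjusted p = 0.013). The share of all genes was not matched for level, and members that fell in this comparison were the more abundant ones, as given above. The plasmacytoid dendritic cell marker sum fell too, and the homo libraries were deeper. The part of abundance, depth and that sum in these falls was not tested. Slc36a1 was not called (log2 0.04 ± 0.05, adjusted p = 0.613).

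Mitochondrial carriers had 4 members higher and 5 lower of 39. Slc25a10 (dicarboxylates) rose from 21.6 ± 3.62 to 32.3 ± 2.45 CPM (log2 0.56 ± 0.16, adjusted p = 0.0273) and Slc25a13 from 14.99 ± 2.91 to 21.6 ± 1.38 (log2 0.51 ± 0.14, adjusted p = 0.0258). Its close relative Slc25a12 fell (225 ± 3.87 to 187 ± 12.4 CPM, log2 −0.28 ± 0.06, adjusted p = 0.00673), as did the glutamate carrier Slc25a22 (log2 −0.32 ± 0.07, adjusted p = 0.0107). Other members that rose were Slc43a3, a carrier of purine bases that its family number places with the amino acid carriers (75.6 ± 10.5 to 108 ± 2.47 CPM, log2 0.50 ± 0.10, adjusted p = 0.00589), and Slc39a8, an importer of zinc and manganese (log2 0.56 ± 0.18, adjusted p = 0.0388). Those that fell included the urate carrier Slc22a12 (24.6 ± 2.61 to 15.7 ± 1.84 CPM, log2 −0.66 ± 0.14, adjusted p = 0.00886).

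Further falls in homo pre-pro B cells were those of the glycine carrier Slc6a9 (6.25 ± 0.6603 to 3.14 ± 0.432 CPM, log2 −0.997 ± 0.27, adjusted p = 0.0219), the acetyl-CoA carrier Slc33a1 (log2 −0.29 ± 0.08, adjusted p = 0.0211), the fatty acid carrier Slc27a1 (log2 −0.29 ± 0.06, adjusted p = 0.00672) and the magnesium carrier Slc41a2 (log2 −0.28 ± 0.08, adjusted p = 0.0345). Calls of named members were lost in numbers from 4 to 15 of 24 on leaving out 1 library: WT replicate 1 took 15 (adjusted p 0.0501 to 0.139), WT replicate 2 took 13 (0.0529 to 0.142), WT replicate 3 took 7 (0.0545 to 0.101), homo replicate 1 took 4 (0.0590 to 0.113), homo replicate 2 took 14 (0.0519 to 0.0912) and homo replicate 3 took 11 (0.0598 to 0.127). With library size as a covariate 22 of the 24 were lost, with sex 19 and in the fit of all 18 libraries 16. Their direction was the same under every alternative, which their choice for groups without overlap made likely beforehand.

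Het pre-pro B cells had no member called against WT with edgeR, against 0.558% of all genes. At an unadjusted p under 0.05 lay 34 of 170 members and 2505 of all 12188 genes. DESeq2 called 3 members. The edgeR count of members was 22 (6 higher, 16 lower) without het replicate 1, and 1 without WT replicate 3. The share of all genes called in these fits was not counted. Het replicate 1 was the shallowest library of that group, and its plasmacytoid dendritic cell sum was 7872 CPM against 5149 and 5579 in the other het libraries and its NK sum 121.5 against 258 and 207. For homo against het at that stage edgeR called no member either, against 0.0164% of all genes. It called 3 without het replicate 2 and 1 without het replicate 3. At an unadjusted p under 0.05 lay 19 of 170 members and 1470 of all 12188 genes, and DESeq2 called 2 members. Slc9a2 lay at 9.803 CPM in het, between 6.84 in WT and 18.1 in homo (het against WT log2 0.54 ± 0.19, adjusted p = 0.143).

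**Figure D3:**
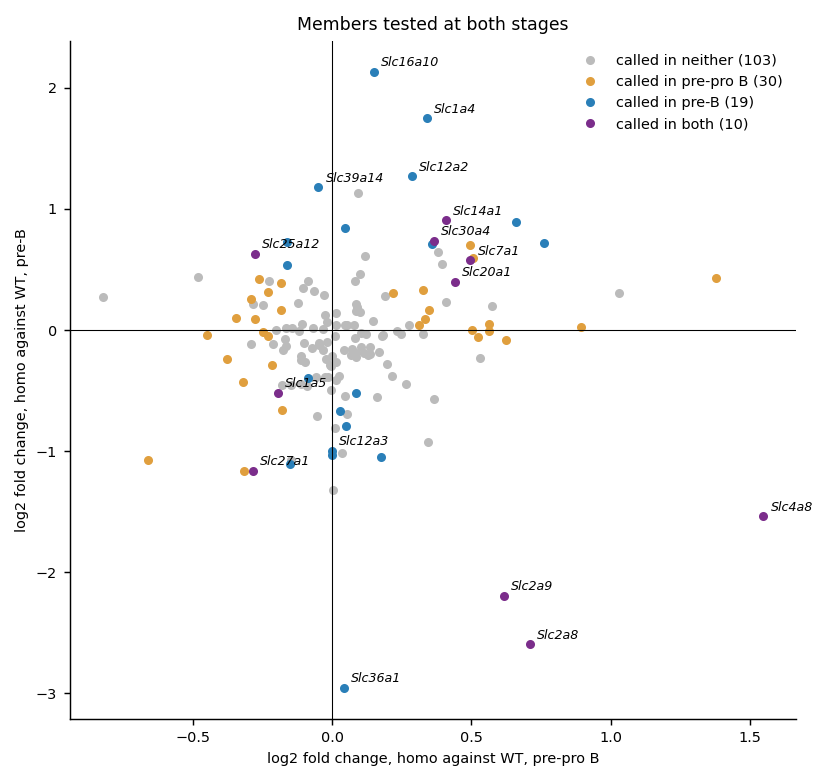
Log2 fold change of homo against WT in pre-pro B cells (horizontal axis) and in pre-B cells (vertical axis) for each member tested at both stages, 1 point per gene; colours show at which stage a member was called. Of the members called at both stages, Slc2a8, Slc2a9 and Slc4a8 lie to the right of and below 0, higher in homo pre-pro B and lower in homo pre-B cells.

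The 42 members called between homo and WT in pre-pro B cells and the 30 called in pre-B cells had 10 in common (23.8% of the first and 33.3% of the second). Over all genes, 19.6% and 29.6% of the calls were shared. Slc14a1, Slc20a1, Slc30a4 and Slc7a1 were higher at both stages, and Slc1a5 and Slc27a1 lower at both. Slc2a8, Slc2a9 and Slc4a8 were higher in homo pre-pro B and lower in homo pre-B cells, and Slc25a12 was lower in the first and higher in the second. These 2 comparisons share no library.

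The difference of the homo effect between the stages was tested as an interaction over all 18 libraries. It was called for 28 members of 171 (12 higher, against 5.17% of all genes, and 16 lower, against 9.37%, which is 16.4% against 14.5%). The largest downward were those of Slc2a8 (log2 −3.31 ± 0.43, adjusted p = 4.3e-05), Slc4a8 (log2 −3.10 ± 0.50, adjusted p = 0.000389), Slc36a1 (log2 −3.03 ± 0.18, adjusted p = 1.58e-08) and Slc2a9 (log2 −2.82 ± 0.35, adjusted p = 2.33e-05). Slc16a10 (log2 1.98 ± 0.23, adjusted p = 1.13e-05), Slc39a14 (log2 1.23 ± 0.25, adjusted p = 0.00288) and Slc12a2 (log2 0.97 ± 0.19, adjusted p = 0.00163) had a homo effect that lay higher in pre-B cells. So did Slc6a9, whose pre-B libraries hold 1 count in WT and 9 in homo, and whose call was lost without pre-B homo replicate 1 (0.0566). For the het effect 9 members were called (3 higher, against 1.85% of all genes, and 6 lower, against 3.80%, which is 5.26% against 5.65%), led by Slc2a9 (log2 −2.44 ± 0.35, adjusted p = 0.000306) and Slc2a8 (log2 −1.82 ± 0.41, adjusted p = 0.0117) downward and Slc16a10 (log2 1.10 ± 0.23, adjusted p = 0.00697) upward, and the count was 5 without pre-pro B WT replicate 2, pre-B WT replicate 1 or pre-B WT replicate 3.

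**Figure D4:**
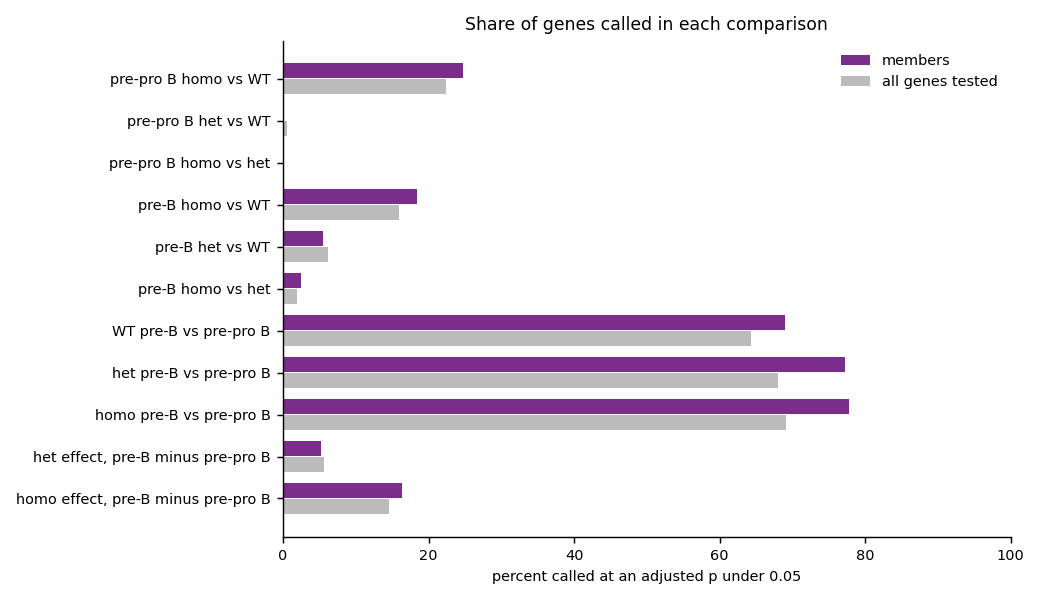
Percent of genes called at an adjusted p under 0.05 (horizontal axis, from 0) among the members (purple) and among all genes tested (grey), for each of the 11 comparisons. The bars of the members and of all genes stand at 18.4% and 15.9% for homo against WT pre-B cells.

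Transporters of other families were looked at beside the members. Of 27 ABC transporter genes tested in pre-B cells 6 rose and 2 fell in homo (against 7.42% and 8.45% of all genes, which also stand beside the other lists here), among them the drug exporter Abcg2 (8.97 to 32.6 CPM, log2 1.90 ± 0.22, adjusted p = 0.000272) upward and Abcg3 (18.4 to 3.55 CPM, log2 −2.25 ± 0.30, adjusted p = 0.000678) downward. Slco4a1, an organic anion carrier, fell from 129 to 54.9 CPM (log2 −1.20 ± 0.16, adjusted p = 0.000616), 1 of 2 tested in its family, and Mfsd6, of the major facilitator orphans, from 67.8 to 9.82 CPM (log2 −2.65 ± 0.26, adjusted p = 0.000106), with 1 of the 14 tested higher and 1 lower. None of 16 Slc35 genes with other letters in their symbols and none of 8 iron handling genes was called. The sensing partners of Slc15a3 and Slc15a4 had 2 lower and none higher of 8, with Tlr9 at 80.5 CPM in WT and 12.9 in homo pre-B cells (log2 −2.46 ± 0.36, adjusted p = 0.00127), while Slc15a3 (log2 −1.16 ± 0.44, adjusted p = 0.111) and Slc15a4 (log2 −0.66 ± 0.25, adjusted p = 0.113) were not called.

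Ikaros regions, as called by the authors, lay in or within 2 kb of more members in homo than in WT cells, as they did over all genes. In cultured pre-B cells 17 members had a region in the WT list (9.94%, against 7.58% of 24342 genes) and 35 in the homo list (20.5%, against 16.5%). In thymocytes 20 had one in WT (11.7%, against 8.39%) and 69 in homo (40.4%, against 23.7%). The members were selected on their RNA level and the 24342 genes were not, so these shares do not compare like with like. The homo lists were longer, 8609 against 3683 regions in pre-B cells and 8221 against 3572 in thymocytes, and with 1 library per list a change in binding and a difference between libraries cannot be told apart. Members with a WT region were mostly members with a homo region: 16 of 17 in pre-B cells (94.1% of the WT and 45.7% of the homo members) and 19 of 20 in thymocytes. Aiolos regions were few, with 1 member in the WT pre-B list of 431 regions and none in the other 3 Aiolos lists of 24 to 184 regions.

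Of the 19 members with an Ikaros region in the homo pre-B list alone, 3 were higher and 2 lower in homo pre-B RNA (Slc16a10, Slc44a1 and Slc7a1, and Slc7a6 and Slc9a7). Of the 16 with a region in both lists 2 were higher and 3 lower (Slc39a10 and Slc43a1, and Slc2a9, Slc36a1 and Slc9a9), and of the 127 tested with no region in either list 11 were higher and 9 lower. The RNA came from sorted and the chromatin from cultured pre-B cells.

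A promoter sequence, from 250 bases before a gene's start to 50 after, was at hand for 129 members, from RefSeq on GRCm38.p6. A region of the homo pre-B list with no WT region over it lay on the promoters of 5 members, Slc22a23, Slc25a11, Slc33a1, Slc36a1 and Slc9a8 (3.88%, against 2.68% of 18150 genes). Of these 5, Slc36a1 alone was called in homo pre-B RNA. Over all genes with such a region 453 were tested in RNA, and 18 were higher and 49 lower (3.97% and 10.8%, against 7.42% and 8.45% of all genes tested). In thymocytes 31 members had one (24%, against 13.1%), again with Slc36a1 among them. The 18150 genes, too, were not selected on their RNA level as the members were.

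Slc36a1 lies on mouse chromosome 11, at chr11:55204322-55236330, on the plus strand, with no other annotated gene over it. The homo pre-B region at its start, chr11:55204127-55205109, covers the start and the first part of the gene and had an authors' fold of 8.49 and a −log10 q of 20.9. In homo thymocytes chr11:55204062-55205119 had a fold of 11 and a −log10 q of 37.2. Neither WT list held a region there. A second region, past the end of the gene, was in both pre-B lists (chr11:55236709-55237022 in WT, with a fold of 4.88). The promoters shown are that of Slc36a1 and, for comparison, that of the nucleoside carrier Slc29a1, whose region was in the WT and the homo lists of both cell types. Capitals mark GGGAA or its reverse complement TTCCC, the core of the sequence that Ikaros family proteins are known to bind.
Slc36a1: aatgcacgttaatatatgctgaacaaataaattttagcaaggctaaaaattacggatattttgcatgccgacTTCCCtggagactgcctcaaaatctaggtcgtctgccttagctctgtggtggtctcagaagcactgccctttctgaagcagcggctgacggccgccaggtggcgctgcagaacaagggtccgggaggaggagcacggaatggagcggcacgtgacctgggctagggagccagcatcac
Slc29a1: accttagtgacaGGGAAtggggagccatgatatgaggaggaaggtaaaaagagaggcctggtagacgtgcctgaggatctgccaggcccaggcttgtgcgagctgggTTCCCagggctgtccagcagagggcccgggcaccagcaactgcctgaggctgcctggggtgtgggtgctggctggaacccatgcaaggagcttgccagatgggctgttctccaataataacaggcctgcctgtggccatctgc
The Slc36a1 stretch, at chr11:55204090-55204339 on the plus strand, held 1 match. The Slc29a1 stretch, before the start at which its region lies (chr17:45597152-45597401, minus strand), held 2. GGGAA or TTCCC was found on either strand in 62.7% of all 32851 promoters of 300 bases and in 62.8% of the members' 172, and the longer TGGGAA or TTCCCA, which contains it, in 25.6% and 20.3%. Slc29a1 was not called in homo pre-B RNA (log2 −0.19 ± 0.21, adjusted p = 0.585).

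**Figure D5:**
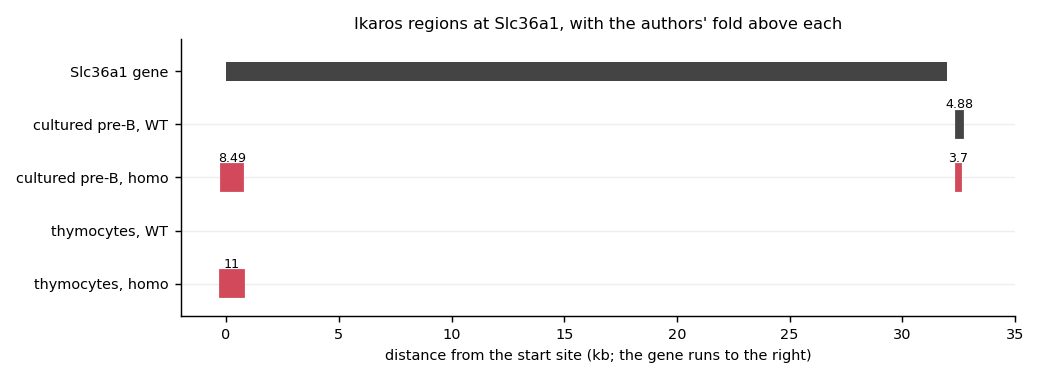
Ikaros regions within 2 kb of Slc36a1 (boxes, 1 row per list, with the authors' fold above each) by distance from the gene's start in kb, with the gene drawn on top. The homo rows of cultured pre-B cells and thymocytes hold a region at the start (folds of 8.49 and 11) that the WT rows lack, and both pre-B rows hold one past the gene's end.

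Regions at other members with changed RNA were of both kinds. Slc16a10, higher in homo, had a region of the homo pre-B list alone inside the gene (chr10:40096948-40097296, fold 4.82). Slc9a9, lower in homo, had 2 regions in each pre-B list, the stronger 1 at chr9:94670615-94671182 in WT (fold 11.5) and chr9:94670464-94671402 in homo (fold 13.6). Slc39a10 and Slc43a1, both higher in homo, had a region inside the gene in both lists, with folds of 6.93 and 8.26 in WT and 8.60 and 10.0 in homo.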

How the data were processed

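RNA was measured in 18 libraries (6 groups of 3) made from poly(A) RNA with a NEBNext Ultra kit, per the labels' protocols. The authors deposited 1 table of raw read counts per gene for each library. The submitters' processing notes name HISAT2 2.1.0, STAR 2.7.0 and MACS2 2.1.1, without their roles, and the build mm10. For each of 8 ChIP lists the authors deposited broad regions with a score, a fold enrichment (a ratio to background), a −log10 p and a −log10 q, as the deposited columns hold them. Inputs were not analysed here.

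Counts were fitted as deposited with edgeR 4.0.16 (quasi-likelihood test, robust, TMM scaling, filterByExpr by group; limma 3.58.1, R 4.3.3), after 5 rows that name no gene were left out. Of these, reads assigned to several genes (ambiguous) made up 0.730% to 0.882% and reads in no gene 29.85% to 40.15% of a library's counts. Genotypes were compared in fits of the 9 libraries of a stage and stages and interactions in a fit of all 18. Calls needed p under 0.05 after Benjamini-Hochberg adjustment over all 12188, 11411 or 12440 genes tested in the pre-pro B, pre-B and joint fits. The biological coefficient of variation was 8.13%, 16.3% and 12.4%. SE is the log2 fold change divided by the root of F. Regions were set to a gene when they lay in it or within 2 kb. Intervals and floors cover counting error only. The code was tested on simulated counts. Alternatives were DESeq2 1.42.0, other scalings, filters, covariates, a replicate block and leaving out each library. Only members were counted under the alternatives, without the share of all genes.

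Named among called members whose groups did not overlap were the 12 with the largest rise and the 12 with the largest fall (homo against WT at each stage, and the WT stage comparison) or the 5 and 5 (other contrasts). Also named were the member with the largest count in each substrate group of 4 or more, Slc47a1, members that encode no carrier, and up to 3 and 3 genes of each other list. Other members were named after their values were seen. The members, lists and tests were chosen with earlier results of these data known. Some members counted in the totals are not reported here by name.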

Additional observations from a re-analysis of the deposited data

Results flagged for a closer look

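The effect of genotype differed between the stages, by an interaction test over all 18 libraries with edgeR, in the members given here. Values are the log2 difference of the effect, pre-B minus pre-pro B, so that a negative value means a lower effect in pre-B cells. No explanation of these differences was tested.

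For the het effect, the interaction was negative for Slc2a9 (−2.44), Slc2a8 (−1.82), the sugar phosphate carrier Slc37a1 (−1.23), Slc36a1 (−1.17), the inositol carrier Slc5a3 (−0.99) and the endosomal exchanger Slc9a9 (−0.71). It was positive for Slc16a10 (1.10), Slc25a12 (0.66) and Slc25a53 (0.54).

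For the homo effect, sugar and inositol carriers were lower in pre-B cells (Slc2a8 −3.31, Slc2a9 −2.82, Slc5a3 −1.25 and Slc37a1 −1.03), as were the ion carriers Slc4a8 (−3.10), Slc12a3 (−0.99) and Slc9a9 (−0.98) and the amino acid carriers Slc36a1 (−3.03), Slc43a2 (−1.03) and Slc7a6 (−0.71) and the purine base carrier Slc43a3 (−0.51), which its family number places with them. Further negative values were those of the mitochondrial carrier Slc25a24 (−0.87), the fatty acid carrier Slc27a1 (−0.86), the thiamine carrier Slc19a2 (−0.72) and the nucleoside carrier Slc28a2 (−0.60).

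Positive values for the homo effect were those of Slc6a9 (4.09, from 1 count in WT and 9 in homo pre-B libraries), Slc16a10 (1.98), the metal carriers Slc39a14 (1.23) and Slc39a10 (0.78), Slc12a2 (0.97), the mitochondrial carriers Slc25a12 (0.91) and Slc25a53 (0.55), Slc7a5 (0.89), the lysosomal nucleoside carrier Slc29a3 (0.69) and the acetyl-CoA carrier Slc33a1 (0.54). Slc33a1 overlaps Gmps, and the reads of both may not be told apart.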

How the results depend on the processing

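No named result changed direction under any of the 1788 alternatives of 126 named results, and 1555 kept their side of the threshold while 233 lost it. Apart from the interactions, named members were chosen for a call, a large fold and groups without overlap. A change of direction was therefore hardly possible, and its absence says little. The cause of these losses, and of the counts that moved, was not tested. Counts of called members moved as follows, while the share of all genes called in the same fits was not counted. Homo against WT in pre-pro B cells (42) gave 10 with sex, 3 with library size and 13 in a fit of all 18 libraries. Het against WT there (0) gave 3 with DESeq2, and homo against het (0) gave 2 with DESeq2 and 2 with no filter. In pre-B cells, homo against WT (30) gave 61 with library size and 54 in the fit of all 18, het against WT (9) gave 19, 41 and 29 with DESeq2, library size and the fit of all 18, and homo against het (4) gave 9, 7, 23 and 12 with DESeq2, sex, library size and the fit of all 18. The het interaction (9) gave 15 with library size.

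Leaving out 1 library gave 15 to 32, 0 to 22 and 0 to 3 in pre-pro B cells (homo against WT, het against WT and homo against het), 17 to 34, 4 to 11 and 1 to 9 in pre-B cells, 110 to 116, 121 to 130 and 124 to 140 for the stage in WT, het and homo, and 5 to 12 and 20 to 34 for the het and homo interactions.

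Same-numbered libraries did not deviate together by the rule used, so the numbers were not taken to pair the samples. Correlations were −0.467 to 0.226 over all comparisons and −0.039 to 0.226 between the stages of a genotype. The stage and interaction tests thus treat the libraries as separate, and shared animals are not excluded. With the replicate block, the counts were 41, 0 and 1 in pre-pro B cells in the same order, 21, 4 and 1 in pre-B cells, 116, 127 and 130 for the stage, and 7 and 26 for the interactions.

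Members with an Ikaros region numbered 27 in WT pre-B cells with a 10 kb margin. Within 1 kb of a start site they were 4 (WT pre-B), 11 (homo pre-B), 7 (WT thymocytes) and 40 (homo thymocytes), and with a −log10 q of 5 or more 21 in homo pre-B cells and 31 in homo thymocytes. The 1 member with an Aiolos region fell to 0 under both of the last settings. Depth limits what can be seen in the pre-B homo replicate 3 library, which held 1888871 counts.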

Other observations

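The peptide carrier gene Slc15a2 varied more within groups than any other member, with an SD of 1.84 on the log2(CPM + 1) scale against a median of 0.215 over the 171 members. WT libraries 1, 2 and 3 had 19.3, 0.166 and 38.1 CPM at the pre-pro B stage and 51.2, 0.895 and 103 CPM at the pre-B stage. Het libraries had 13.99, 80.5 and 48.05, then 60.3, 224 and 101 CPM, and homo libraries 42.1, 16.3 and 18.6, then 117, 39.2 and 70.2 CPM. The library numbered 2 was the lowest WT library and the highest het library at both stages.

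In 9 of 9 same-numbered libraries Slc15a2 was higher in the pre-B than in the pre-pro B library, by 2.105-fold to 5.38-fold, and the libraries of each number and genotype were of 1 sex in 9 of 9. The unpaired stage test in WT did not call it (edgeR, log2 1.43 ± 1.12, adjusted p = 0.28). Whether same-numbered libraries came from 1 animal is not stated, and the cause of the spread was not tested.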
